A study of Saccharomyces cerevisiae with 2 samples.

Results

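The budding yeast genome holds open reading frames whose systematic name ends in a hyphen and a letter, such as YGL007C-A. These tags were given to frames recognised after the numbered series of the chromosome had been fixed, so they sit between older neighbours. The frames described here are those with such a tag and no other name. The rule uses names alone, from the platform annotation and RefSeq's table of genes (R64 assembly). On the array, 148 probe sets read 142 of these frames, out of 5449 measured genes of Saccharomyces cerevisiae, and 97 further unnamed suffixed frames of the table were not analysed here.

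Total RNA was compared between a strain with wild-type ACS2 and a strain with the temperature-sensitive allele acs2-Ts1. The product of ACS2 is the acetyl-CoA synthetase found in nucleus and cytosol. Both strains are BY4741 derivatives of genotype MATa his3delta1 leu2delta0 met15delta0 ura3delta0, both lack chromosomal ACS2 (acs2::HygMX), and a centromeric URA3 plasmid carries the wild-type gene (pHT112-1) or the allele (pHT215). Both cultures grew in YPD and were held at 37 °C for 60 min. Each group is 1 sample, the authors' mean of 2 arrays, so no comparison below has a test, an SE or a p-value, and "higher" and "lower" mean acs2-Ts1 relative to wild type in these samples. With no sample at a lower temperature and with different plasmids, an effect of the allele cannot be told apart from other differences between the strains or cultures.

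Short frames of this kind encode small proteins, and for many of them no function is known. A probe set placed in a very short frame can also detect a longer transcript that runs across it from a neighbour. Suffixed tags were given as well to the frames of Ty retrotransposons, which are present in many near-identical copies and in which a shorter frame begins a longer one that is read through a frameshift. Levels are array intensities on a linear scale, and differences are log2 ratios without a pseudocount.

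As a check of the strains, the genes of the a mating type were well above background, MFA1 at 2123 in wild type and 1105 in acs2-Ts1, MFA2 at 4027 and 2725, STE2 at 3398 and 2090. LEU2, which both strains lack, read 68.0 and 77.5. HIS3 and MET17 (met15delta0), which the strains lack in whole or part, read 1650 and 882, and 47.9 and 77.5. Of the genes of alpha cells, STE3 read 214 and 59.0, MF(ALPHA)1 25.5 and 21.0, and MF(ALPHA)2 64.5 and 61.8. Of the plasmid genes, ACS2 read 10257 and 12426 and the marker URA3 read 1853 and 7060, and whether the plasmid's level bears on the frames was not tested. The background limit was the 95th percentile of 1746 probe sets of another yeast on the array, 49.1 for wild type and 46.3 for acs2-Ts1. The log2 ratios of these probe sets had an SD of 0.36 around a median of -0.32, and those of 27 bacterial and phage hybridization controls an SD of 0.17 around -0.005. Between probe sets of the same gene, in 47 genes with several, the pooled SD of the log2 ratios was larger, 0.43. LEU2, HIS3, STE3 and MF(ALPHA)2 read above the limit in both samples. A value at or above it therefore does not by itself show that a gene is expressed.

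Most unnamed suffixed frames gave little signal. The median frame had an intensity of 58.9 in wild type, against 586 for all genes, and of 56.7 in acs2-Ts1, against 259. At or above the limit in both samples were 70 of the 142 frames (49.3%), compared with 91.3% of all genes. A further 13 frames reached it in wild type alone, 7 in acs2-Ts1 alone, and 52 (36.6%) in neither sample, where 2.95% of all genes lay. The frames are also short, with a median length of 183 bases against 1236 for all genes, and 121 of them are under 300 bases.

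The frames did not show the downward shift of the other genes. Their median log2 ratio was 0.01, while that of all genes was -1.12. At least 2-fold higher were 22 of 142 (15.5%), beside 3.67% of all genes, and at least 2-fold lower were 18 (12.7%), beside 55.9% of all genes. The other 102 lay within 2-fold, from -0.96 to 0.98. At least 4-fold higher were 6 frames, beside 0.826% of all genes, and at least 4-fold lower were another 6, beside 9.51%. The split depends on how the 2 samples are scaled to each other. With the all-gene median set to 0 in place of the authors' normalization, 81 frames passed 2-fold upwards (all genes 16.4%) and 5 downwards (all genes 6.61%).

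**Figure D1:**
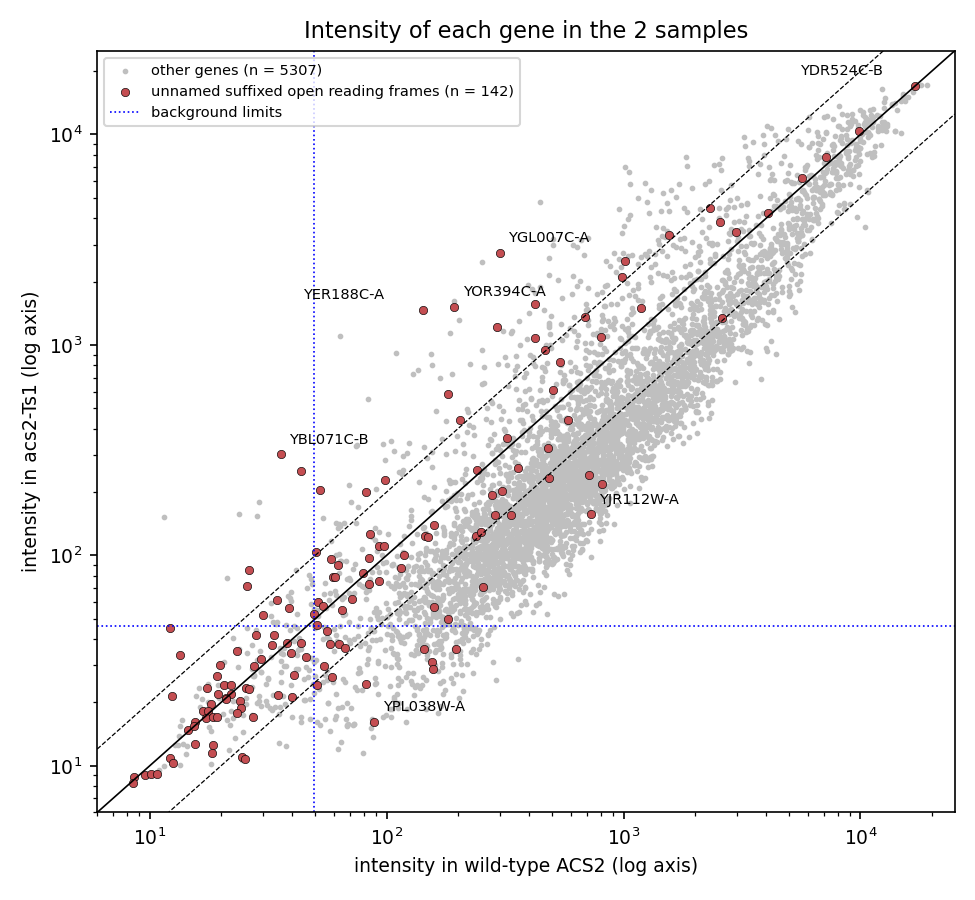
Intensity in wild-type ACS2 (horizontal, log axis) and in acs2-Ts1 (vertical, log axis) for each of 142 unnamed suffixed frames (red) and the other measured genes (grey). The solid line marks equal intensity, dashed lines a 2-fold difference and dotted lines the background limits of 49.1 and 46.3. Most grey points lie below the solid line, and the red points lie on both sides of it.

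The median of the frames was above that of all genes in every bin of signal level. With genes binned by the geometric mean of both samples, 63 frames lay below the limit, with a median log2 ratio of -0.04 where all genes of that bin had -0.38. Of these, 4 passed 2-fold upwards (all genes 2.44%) and 6 downwards (all genes 29.3%). The frames are 63 of the 246 genes of that bin. Its values lie in the range of the background probe sets, whose median log2 ratio was -0.32, so it cannot show a contrast of transcripts. Between the limit and 200, the 40 frames had a median of -0.20 and all genes -1.43, with 6 frames past 2-fold upwards (all genes 2.58%) and 7 downwards (all genes 70.2%). Between 200 and 1000, the 26 frames had 0.23 and all genes -1.27. At 1000 and over, the 13 frames had 0.21 and all genes -0.53. In the bin from 200 to 1000, 9 of 26 frames (34.6%) were at least 2-fold higher against 2.53% of all genes, and 5 (19.2%) were at least 2-fold lower against 67% of all genes. At 1000 and over, 12 of 13 frames were above 0 (all genes 26.4%), 3 of them at least 2-fold higher (all genes 7.06%), and 0 were at least 2-fold lower (all genes 26.6%). These 13 are not all small or separate. YBL100W-A, YBL100W-B, YBL005W-A, YDR261C-D, YDR261W-B, YDR316W-B and YER138W-A are read by probe sets whose suffix marks possible cross-hybridization. YBL100W-A also lies inside YBL100W-B.

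**Figure D2:**
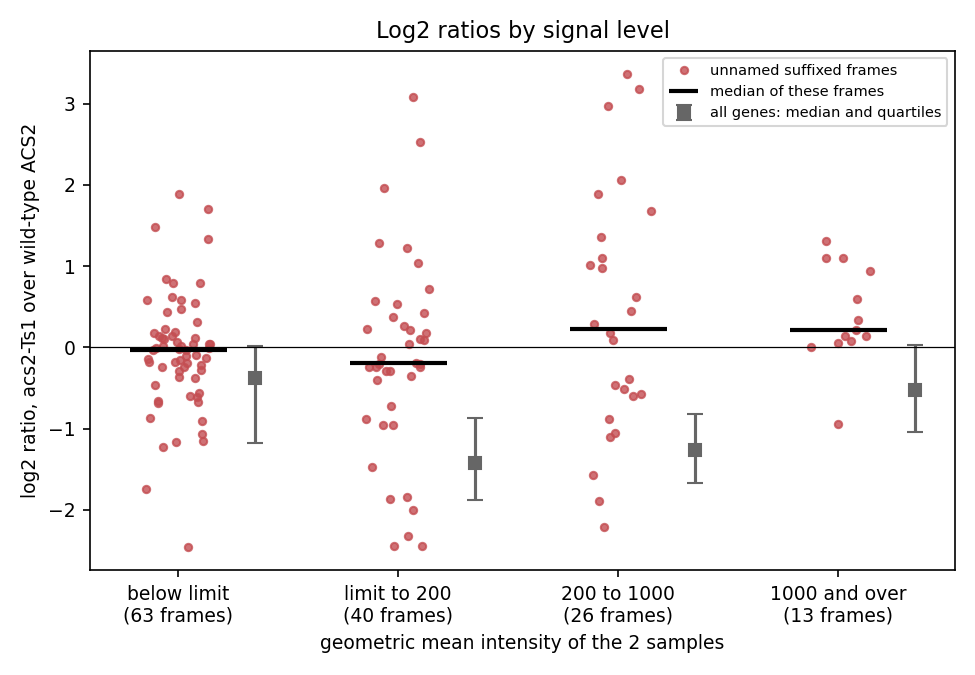
The log2 ratio between acs2-Ts1 and wild-type ACS2 (vertical) in 4 bins of geometric mean intensity (horizontal). Each red point is 1 unnamed suffixed frame, the black bar is their median, and the grey square with its error bar is the median and the quartiles of all genes in that bin. The medians of the frames were -0.04, -0.20, 0.23 and 0.21 from the dimmest to the brightest bin, each above that of all genes.

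Genes that share either the suffix or the lack of a name, but not both, lay nearer to the other genes. Genes with a suffixed tag that do have a name, 107 in all, had a median log2 ratio of -0.90, with 8 past 2-fold upwards and 48 downwards. The 357 unnamed genes without a suffix had a median of -0.97, with 19 and 173. The named suffixed genes are longer, with a median of 285 bases, and brighter, with a median of 733 in wild type. In the bin from 200 to 1000 their 35 genes had a median of -1.25 and the 164 unnamed genes without a suffix had -1.17. Between the limit and 200 these medians were -1.61 and -1.13. The distance from the unnamed suffixed frames was smaller in the other bins. At 1000 and over the medians were -0.44 and -0.56, against 0.21 for the frames, and below the limit -0.26 and -0.31, against -0.04. These differences between sets of genes were not tested.

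Of the 22 frames that were at least 2-fold higher, 16 were at or above the limit in both samples, so that a fold can be given. YER188C-A had an intensity of 143 in the wild-type sample and 1468 in the mutant sample, the order kept below, which is 10.3-fold higher and rank 4 of all genes by log2 ratio. It lies at the end of chromosome V between the heme and protoporphyrin transporter gene PUG1, at 194 and 169, and YRF1-2, a subtelomeric helicase gene that was not analysed here. The frame was therefore higher while PUG1, the nearest named gene on that side, was slightly lower. Neighbours here and below are named genes, and unnamed genes may lie between them and the frame.

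YGL007C-A, a frame of 87 bases, read 301 and 2740 (9.10-fold higher). On the same strand next to it lies PMA1, for the proton pump of the plasma membrane, which read 10109 and 10017, and on its other side BRP1, not analysed here. YOR394C-A read 193 and 1517 (7.85-fold higher), whereas PAU21, the seripauperin family gene beside it, was below the limit in both samples at 28.2 and 44.0. Its neighbour towards the end of chromosome XV is another helicase gene, YRF1-8, not analysed here.

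YLR285C-A read 292 and 1219 (4.17-fold higher). It stands between genes that went in opposite directions. NNT1, for a methyltransferase, read 889 and 254, and CTS1, for the endochitinase of cell separation, read 4199 and 10707 on the strand of the frame. The frame had the direction of CTS1 and not that of NNT1, its nearest named gene.

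YIR018C-A read 182 and 585 (3.21-fold higher) between YAP5, for a transcription factor of iron response, at 183 and 228, and the flocculin gene FLO11, at 197 and 162. YHR175W-A read 424 and 1082 (2.55-fold higher). The gene beside it on the same strand is CTR2, for a copper transporter of the vacuole, at 1083 and 2687, so frame and neighbour had close log2 ratios of 1.35 and 1.31. On the other side FMO1, for a flavin monooxygenase, read 212 and 97.7.

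YAR035C-A, of 81 bases, read 82.2 and 200 (2.43-fold higher). The carnitine acetyltransferase gene YAT1 beside it on the opposite strand read 492 and 1369, a log2 ratio of 1.48 against 1.28 for the frame. SWH1, an oxysterol-binding protein gene on the other side, read 895 and 290. The frame again had the direction of the nearer gene.

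YCL021W-A read 1552 and 3325 (2.14-fold higher), between the kinase gene KCC4, at 354 and 124, and LEU2, which is deleted in these strains. YGR146C-A read 205 and 438 (2.14-fold higher), next to ECL1 on the same strand, at 2811 and 4892. YOR316C-A read 50.3 and 103 (2.05-fold higher), just above the limit in wild type. Its neighbours are COT1, for a zinc and cobalt transporter of the vacuole, at 1246 and 866, and FAA1, an acyl-CoA synthetase gene, at 4131 and 4992. YER053C-A, named here after its values were seen, completed the 16 at 468 and 942, while its neighbours PIC2, for a phosphate carrier of mitochondria, and GIP2 had log2 ratios of 0.02 and 0.10.

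For 6 frames at least 2-fold higher, the wild-type value was below the limit, and only values are given. YBL071C-B read 35.7 and 302, and YHR007C-A read 43.5 and 251, so both were clearly above the limit in acs2-Ts1. The neighbours of YBL071C-B are RPS8A, for a ribosomal protein, at 4772 and 3369, and KTI11 at 1040 and 1209. Those of YHR007C-A are ERG11, of sterol synthesis, at 9162 and 11260, and SOD2, the mitochondrial superoxide dismutase gene, at 1665 and 1811. None of these 4 neighbours differed by 2-fold.

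The other frames of this kind were dim in both samples. YML100W-A read 26.2 and 85.4 between CUE4, at 1257 and 4764, and TSL1, for a subunit of trehalose synthase, at 6043 and 12054. YHR022C-A read 25.8 and 71.9, next to the myosin gene MYO1 at 299 and 92.9. YBR182C-A read 12.2 and 44.9 and YPR159C-A 13.4 and 33.6, below the limit in both samples. SMP1, for a transcription factor next to YBR182C-A, read 254 and 655, and KRE6, of glucan synthesis, next to YPR159C-A, read 4208 and 4340.

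**Figure D3:**
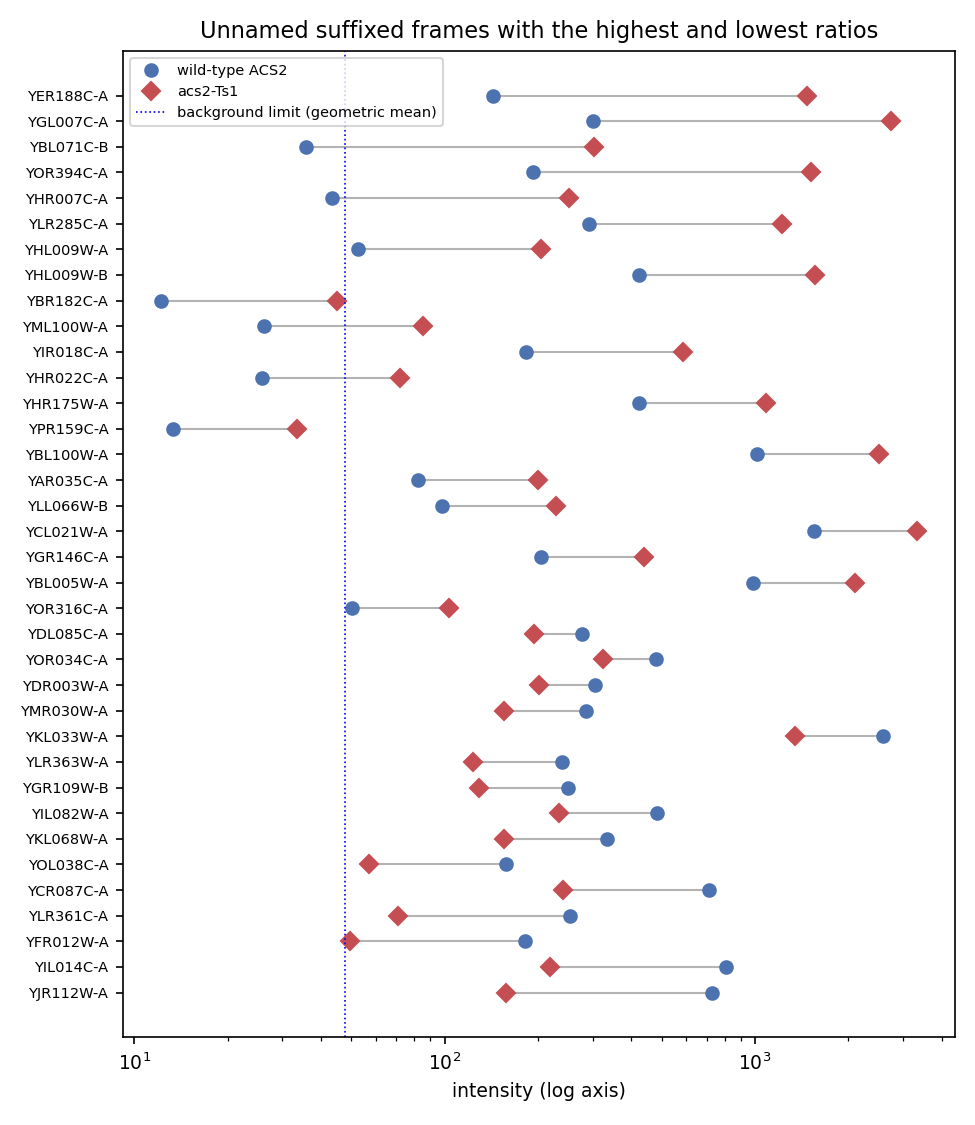
Intensity (horizontal, log axis) in wild-type ACS2 (blue circles) and acs2-Ts1 (red diamonds) of the 15 highest and 15 lowest ratios among frames at or above the limit in both samples, and of 6 frames at least 2-fold higher whose wild-type value lay below it. The dotted line is the geometric mean of the limits, 47.7, and the frames run from the highest log2 ratio at the top (YER188C-A) to the lowest at the bottom (YJR112W-A).

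Of the 18 frames that were at least 2-fold lower, 8 were at or above the limit in both samples. With the all-gene median set to 0, 1 of these 8, YJR112W-A, was still lower by at least 2-fold, and with the trend of the ratio with level removed 0 were. YJR112W-A read 728 and 157 (4.63-fold lower). Its neighbours are RSM7, a mitochondrial ribosomal protein gene at 1330 and 1181, and NNF1, a kinetochore gene on the same strand at 456 and 125. The frame had a log2 ratio of -2.21, closer to the -1.86 of NNF1 than to the -0.17 of RSM7.

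YIL014C-A read 808 and 218 (3.70-fold lower) between the mannosyltransferase gene MNT3, at 504 and 220, and BAR1, for the protease that degrades alpha factor, at 1391 and 431. YFR012W-A read 182 and 49.6 (3.67-fold lower), beside the chromatin remodelling gene IOC3 at 290 and 75.4. YLR361C-A read 254 and 70.6 (3.60-fold lower), beside STE11, a kinase gene of the pheromone pathway, at 464 and 141. YCR087C-A read 712 and 240 (2.96-fold lower), beside CSM1, a chromosome segregation gene, at 500 and 101. All 4 had a nearest known gene that was itself lower by at least 2-fold. So were 55.9% of all genes and 43.8% of the measured neighbours of all frames. RSM7, the nearest known gene of YJR112W-A, was not.

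YOL038C-A read 158 and 56.9 (2.78-fold lower). It lies between RPP2A, of the ribosomal stalk, at 9551 and 8993, and the proteasome gene PRE6, at 4316 and 2483. Like that of YJR112W-A, its nearest known gene, RPP2A, was not lower by 2-fold. YKL068W-A read 334 and 156 (2.14-fold lower), next to the nucleoporin gene NUP100 on the same strand at 894 and 363. The eighth frame of this kind, YIL082W-A, is among the long ones below.

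In the next 7 by ratio the difference was under 2-fold, and all 7 lay above 0 when the all-gene median was set to 0. YLR363W-A read 239 and 123, YKL033W-A 2594 and 1348, YMR030W-A 286 and 155, and YGR109W-B 250 and 129. YDR003W-A read 306 and 201, YOR034C-A 480 and 323, and YDL085C-A 277 and 194. The nearest known genes NMD4 of nonsense-mediated decay, TTI1, HOF1 of cytokinesis and SHE4 had log2 ratios of -1.79, -2.13, -1.43 and -1.61, all lower than those of YLR363W-A (-0.95), YKL033W-A (-0.94), YMR030W-A (-0.89) and YOR034C-A (-0.57). By contrast RCR2, beside YDR003W-A (-0.60), had 0.26.

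Another 8 frames at least 2-fold lower were above the limit in wild type and below it in acs2-Ts1, and the remaining 2 were below it in both. The lowest log2 ratios of all the frames fell in this class, so they are given as values, chosen after they were seen. YPL038W-A read 88.8 and 16.2, YNL162W-A 196 and 35.9, YAL063C-A 156 and 28.7, and YMR230W-A 155 and 31.1. MET31, RIA1 and PEP5, the nearest known genes of YPL038W-A, YNL162W-A and YMR230W-A, had log2 ratios of -1.93, -2.17 and -1.87. YAL063C-A lies next to the flocculin gene FLO9, which read 522 and 391.

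The brightest of the frames had nearly equal values in both samples. YDR524C-B read 16937 and 17043, and YCR024C-B read 7131 and 7853. Their log2 ratios were 0.01 and 0.14. YCR024C-B is next to PMP1, for a small proteolipid that associates with the plasma membrane proton pump, on the same strand at 6064 and 6371. YDR524C-B lies between AGE1, at 284 and 377, and API2, not analysed here. The other 3 of the brightest 5, YDR316W-B, YDR261W-B and YER138W-A, are read by probe sets whose suffix marks possible cross-hybridization, and their log2 ratios were 0.08, 0.14 and 0.05. With the all-gene median set to 0, these 5 were at least 2-fold higher.

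Only 1 frame overlaps a named protein-coding gene in the table. YGL041C-B shares 33.9% of its length with DPC13 on the opposite strand. It was below the limit in both samples at 24.6 and 11.0, and DPC13 was not analysed here. A further 11 frames overlap other unnamed frames on the same strand, and 130 overlap no protein-coding gene. For the 141 frames without an overlapping named gene the nearest named gene was taken, on the same strand for 71 and on the opposite strand for 70.

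The frames mostly had higher log2 ratios than the known genes beside them. A measured neighbour was at hand for 128 frames, and 95 of these (74.2%) had the higher ratio of the pair. The same count over all genes, each against its own nearest known gene, was 54.3%, and over named suffixed genes it was 63 of 102 (61.8%). The median log2 ratio of the frames was already 1.14 above that of all genes. The count of 95 therefore restates that shift in part and is not a separate result about neighbours. The share to be had from the shift alone was not computed. The neighbours had a median log2 ratio of -0.83 and the frames 0.02, with a median difference of 0.69 within pairs. Among 72 frames with a mean level at or above the limit, 56 (77.8%) had the higher ratio, against 53.9% of all genes at such levels. With the trend of the ratio with level removed, 84 of the 128 frames (65.6%) had the higher ratio. The all-gene share was not computed in that setting.

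Over all frames the count was similar on both strands. On the same strand 50 of 67 frames (74.6%) and on the opposite strand 45 of 61 (73.8%) exceeded the neighbour. For the frames with a mean level at or above the limit, these counts were 31 of 37 (83.8%) and 25 of 35 (71.4%). Their median differences were 0.99 and 0.74. The all-gene share by strand was not computed. Across the 72 pairs at such levels, Pearson's r between the ratios of frame and neighbour was 0.37 and Spearman's rho 0.37. The pairs come from the same 2 samples and share their scaling and level trend, so this is a description and no p is given.

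The frames that were at least 2-fold higher had 20 measured neighbours, of which 5 (25%) passed 2-fold upwards and 6 (30%) downwards, with a median of 0.07. The upward share was above the 3.67% of all genes and the downward share below the 55.9%. Over the 128 neighbours of all frames, 10 (7.81%) passed upwards and 56 (43.8%) downwards. Nested frames share a neighbour, which is then counted for each. The frames that were at least 2-fold lower had 16 measured neighbours, of which 12 (75%) passed 2-fold downwards and 0 upwards, and their median was -1.51. These differences between sets of neighbours were not tested. Whether a probe set read the frame's own transcript or one that extends from a neighbour was not tested.

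**Figure D4:**
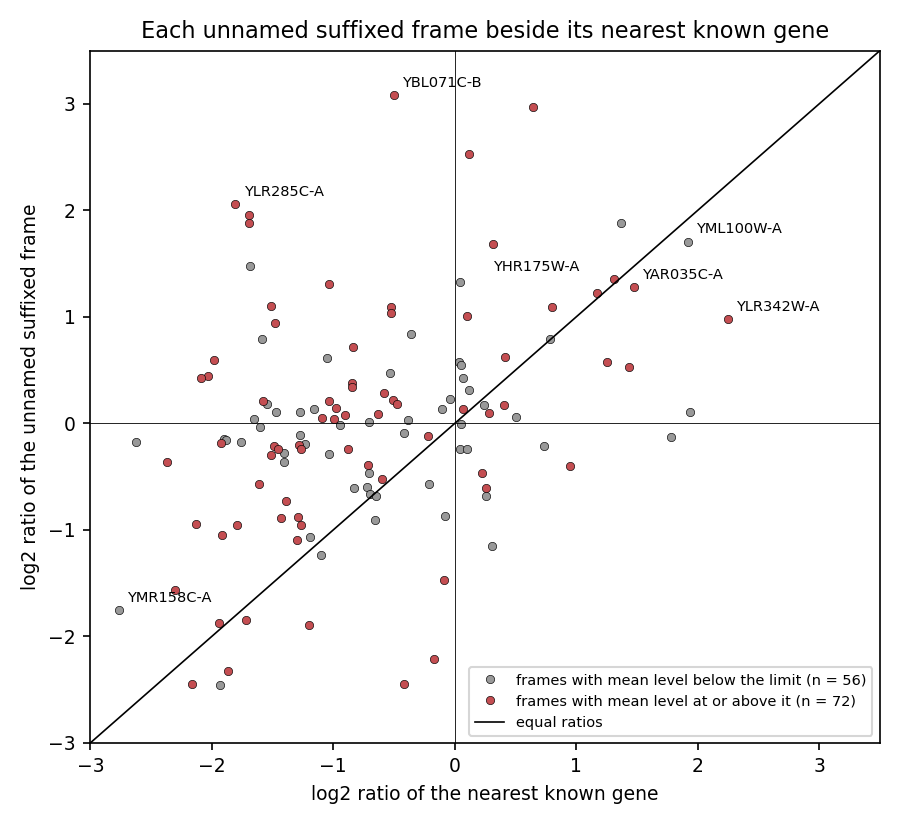
Log2 ratio of each frame (vertical) against that of its nearest known gene (horizontal) for 128 pairs. Red points are 72 frames with a mean level at or above the background limit, grey points the 56 below it, and the line marks equal ratios. Most points, 95 of 128, lie above the line, and YHR175W-A and YAR035C-A lie close to it at the upper right.

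Not every member is small. Of the 142 frames, 12 are 800 bases or longer, and 7 of these exceed 4000 bases. The annotated length of all 7 is not a multiple of 3, which among the other 135 frames holds for 1. Of the 12, 11 are read by probe sets whose suffix marks possible cross-hybridization, so a value may sum several copies. Their median log2 ratio was 0.25, with 4 past 2-fold upwards (all genes of such length 3.14%) and 1 downwards (58.8%). The remaining 130 shorter frames had a median of -0.01, with 18 past 2-fold upwards (all genes under 800 bases 5.12%) and 17 downwards (48.2%).

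In 3 places a shorter frame lies inside a longer one on the same strand and both are among the 142. YHL009W-A, inside YHL009W-B, read 52.5 and 204, and the longer frame read 423 and 1561. These were 3.88-fold and 3.69-fold higher, so both probe sets gave nearly the same ratio at very different levels. Their neighbours YAP3, for a transcription factor, at 263 and 81.4, and STE20, for a kinase of the pheromone pathway, at 1665 and 432, were both lower by at least 2-fold.

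The other pairs did not give like ratios. YBL100W-A, inside YBL100W-B, read 1016 and 2516 (2.48-fold higher), but the longer frame read 2976 and 3448, a log2 ratio of 0.21. YGR109W-A, inside YGR109W-B, read 64.8 and 54.8, a log2 ratio of -0.24, and the longer frame had -0.96. YBL005W-A, which is close in length to YBL100W-A at 1323 and 1317 bases, read 984 and 2106 (2.14-fold higher). The longer frame around YBL005W-A was not analysed here.

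The other frames over 4000 bases went both ways. YDR316W-B read 9858 and 10433, YDR261W-B 5639 and 6233, and YDR261C-D 1188 and 1501, all within 2-fold. YIL082W-A was 2.07-fold lower at 484 and 234, and together with YGR109W-B it had the lowest ratio of the long frames. YEL076C-A, of 930 bases at the end of chromosome V, read 502 and 613, whereas the frame YEL076C, which lies within it on the same strand and covers 70% of it, read 187 and 127.

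**Figure D5:**
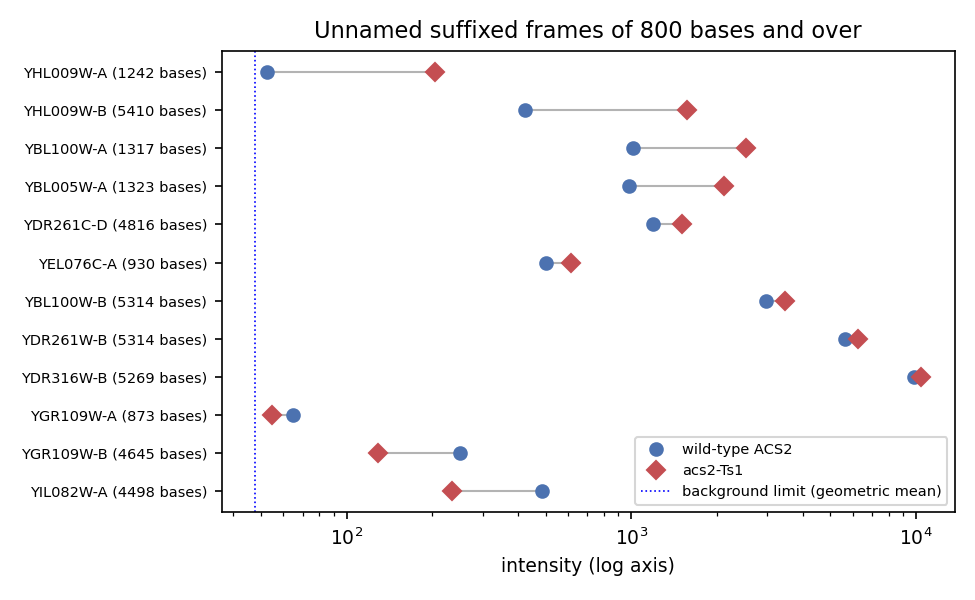
Intensity (horizontal, log axis) in wild-type ACS2 (blue circles) and acs2-Ts1 (red diamonds) of the 12 frames of 800 bases and over, ordered by log2 ratio, with the annotated length in bases. YHL009W-A and YHL009W-B were higher by 3.88-fold and 3.69-fold, and YIL082W-A was 2.07-fold lower.

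Among the 10 outermost protein-coding genes of each chromosome end, 18 of the frames were measured. Their median log2 ratio was 0.17, with 4 at least 2-fold higher (all genes at the ends 8.94%) and 3 at least 2-fold lower (all genes at the ends 37.9%). The 4 higher frames were YER188C-A, YOR394C-A, YAR035C-A and YLL066W-B. The 124 frames elsewhere had a median of 0.00, with 18 past 2-fold upwards (all genes elsewhere 3.43%) and 15 downwards (56.8%).

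For 5 frames more than 1 probe set was present, and the one without a suffix letter was used. YLL066W-B read 98.1 and 229 (2.33-fold higher) by that probe set, and its 2 others read 78.3 and 324, and 274 and 1329. All 3 were at least 2-fold higher, as PAU18, the seripauperin gene beside it, was at 852 and 1924. The probe sets of YOR072W-B went apart: the one used read 14.5 and 14.8, below the limit, while one that may cross-hybridize read 716 and 2346. YLR157W-E likewise read 8.54 and 8.81 by the probe set used and 206 and 344 by the other. For YGR174W-A and YOL166W-A both probe sets were below the limit.

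Among frames with a mean level of 200 or more, several others were above 0 without reaching 2-fold. These are named after their values were seen. YLR342W-A read 688 and 1356, a log2 ratio of 0.98, between GAS2, for a glucan-remodelling enzyme, at 663 and 3158, and the glucan synthase gene FKS1, at 8662 and 9912. YBR085C-A read 2325 and 4456 (0.94) between AAC3, an ADP/ATP carrier gene on the opposite strand at 1612 and 2997, and IST2 at 2616 and 938. YLR264C-A read 2553 and 3858 (0.60), next to NEJ1, of DNA end joining, at 218 and 55.2, and RPS28B, for a ribosomal protein, at 5370 and 4962. YJL047C-A read 804 and 1092 (0.44) between UBX6 and RTT101, which had log2 ratios of -1.29 and -2.03.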

How the data were processed

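Per the labels, 4 arrays were background-corrected (RMA, per the submitters' processing notes), the authors averaged the 2 arrays of each strain, and a lowess curve fitted on controls normalized the means. Each of the 2 deposited columns holds 10928 linear intensity values, 1 per probe set. The sources used here do not name the controls or give a software version, and single arrays were not analysed here.

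Groups were taken from the genotype field, since both titles carry the abbreviation for wild type. Probe sets were matched to RefSeq genes (R64) by gene identifier. Each gene was read by its brightest probe set without a suffix letter, or by the brightest with one where no other was present (81 genes, 13 of them unnamed suffixed frames). The R64 table gave names, lengths and gene order. The array design gives no build, so no coordinates are printed. Log2 ratios of acs2-Ts1 over wild type had no pseudocount. No test was made, as a group is 1 sample, and the number of arrays limits the precision. A fold is given where both values reach the background limit.

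Frames named by rule are the 15 highest and 15 lowest ratios among frames at or above the limit in both samples, frames at least 2-fold higher from below it, and the brightest 5. Their neighbours are named as well. Other frames, among them those named for an overlap, nesting, length or several probe sets, were named after their values were seen. The rule that defines the 142 frames uses no measured value, but this rule, the comparison sets and the thresholds were chosen with earlier results of these data known. The counting and lowess steps were tested on simulated data. Python 3.11.15, pandas 2.3.3 and statsmodels 0.14.6 were used.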

Additional observations from a re-analysis of the deposited data

How the results depend on the processing

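Leaving out 1 array was not possible, since the deposited values are means. No paired analysis was possible because each group has 1 sample. The results were 22 frames at least 2-fold higher, 18 at least 2-fold lower, a median log2 ratio of 0.01, which is 1.14 above the all-gene median, and 95 of 128 frames above their neighbour. Adding 32 to both intensities, centring on hybridization controls, averaging a gene's probe sets, dropping those with a suffix and taking names from the platform annotation kept the counts within 1.5 times and the median between -0.007 and 0.027. With 32 added, though, 16 frames were at least 2-fold higher (all genes 3.27%) and 12 lower (50.0%). Of the 41 frames named by rule, 7 no longer passed 2-fold, 5 of the higher (YOR316C-A, YGR146C-A, YHR022C-A, YBR182C-A, YPR159C-A) and 2 of the lower (YKL068W-A, YIL082W-A). YER053C-A, named after its values were seen, no longer passed either. Counting overlapping known genes alone gave no value, as the single such gene was not analysed here.

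Centred on the all-gene median, 81 frames were at least 2-fold higher (all genes 16.4%) and 5 lower (6.61%), with a median of 1.14. With the trend of the ratio with level removed, these were 59 (all genes 12.3%) and 4 (2.82% of the frames, all genes 4.06%), with a median of 0.72, which is 0.74 above all genes. With that trend removed 84 of 128 frames (65.6%) exceeded their neighbour, and the all-gene share was not computed. All 21 frames named by rule that were at least 2-fold higher stayed so in both settings. Of the 8 frames named by rule that were at least 2-fold lower, 7 no longer passed when centred and 8 with the trend removed. Among them YKL068W-A and YIL082W-A changed sign, to 0.025 and 0.072 when centred and to 0.33 and 0.28 with the trend removed. Of the 7 frames named by rule that were lower by less, 7 changed sign when centred. With the trend removed 6 did, all but YKL033W-A, and so did YDR524C-B, to -0.27. Without frames below the limit in both samples, the distance from all genes was 1.24 and 63 of 83 frames exceeded their neighbour, fewer because fewer frames are counted. Without frames below it in either sample, 8 frames were at least 2-fold lower (11.4%, all genes 55.9%). The median was then 0.14, the distance 1.26, and 51 of 64 exceeded their neighbour. This filter removes frames that are low in acs2-Ts1 and is no support for the higher ones. The all-gene share above a neighbour was not computed with either filter. At a threshold of 1.5-fold 32 frames were higher (all genes 6.04%) and 32 lower (72.03%), and at 3-fold 11 were higher (1.58%) and 10 lower (25.8%). Added after seeing the data, a comparison within genes under 800 bases gave a distance of 0.96, and leaving out chromosome ends or taking the brightest probe set whatever its suffix kept the counts within 1.5 times, with medians of 0.003 and 0.028.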
